A study of Drosophila melanogaster with 2 samples.

Results

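miR-317, miR-277 and miR-34 are fruitfly miRNAs (Drosophila melanogaster) whose hairpins lie beside each other on chromosome arm 3R, and they were followed here as the 6 mature arms whose base name is miR-34, miR-277 or miR-317, out of 466 arms listed by name in a small RNA library. Values came from 1 small RNA library and 1 mRNA library, both labelled adult and both made from total RNA. For the small RNA library, the methods describe RNA isolated from individual adults. Neither library has a replicate, and no treatment or genotype is named. The labels and methods name neither sex, strain, age nor the number of flies per library, so the levels describe adults of unstated age and hold no comparison of young with old flies. The small RNA library held 139339 listed reads and the mRNA library 26179479 counts, and all tests and intervals below cover counting error within 1 library.

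A miRNA is cut from the stem of a hairpin in a longer primary transcript, by Drosha in the nucleus and then by Dicer-1 in the cytoplasm. The stem gives a duplex of a 5p and a 3p arm, of which as a rule one is kept in an Argonaute protein and the other is degraded. In Drosophila, miR-34 is known from the adult brain, where its loss shortens life and promotes neurodegeneration, and it represses the ecdysone-response gene Eip74EF. miR-277 represses enzymes of the breakdown of branched-chain amino acids, and part of it is loaded into AGO2 rather than AGO1. miR-317 has been linked to the female response to mating and to the Toll immune response.

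The hairpin sequences are shown because arm choice is described below by the side of the hairpin on which an arm lies. They are the designed pre-miRNA substrates of the study, joined from its overlapping primers and read 5′ to 3′, with the 5p side to the left and the 3p side to the right of the terminal loop. Capitals mark the terminal loop that RNAfold predicted at 37 °C. By the study's design a substrate starts with G, and where the natural pre-miRNA does not, that base and its partner near the 3′ end were changed.
pre-miR-317: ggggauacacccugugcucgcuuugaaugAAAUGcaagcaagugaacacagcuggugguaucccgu
pre-miR-277: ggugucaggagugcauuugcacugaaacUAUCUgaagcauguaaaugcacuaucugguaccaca
pre-miR-34: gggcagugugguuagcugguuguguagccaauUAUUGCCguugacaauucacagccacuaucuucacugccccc
The substrates were 66, 64 and 74 bases long and folded into 1 hairpin each, with 24, 24 and 26 base pairs. The loop measured 5 bases in pre-miR-317 and pre-miR-277 and 7 bases in pre-miR-34.

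All 3 hairpins folded into a more stable structure than the typical substrate. The minimum free energy was -28.1 kcal/mol for pre-miR-317, -26.6 kcal/mol for pre-miR-277 and -32.0 kcal/mol for pre-miR-34, against a median of -22.6 kcal/mol over the 118 fruitfly substrates that could be joined from their primers (quartiles -26.4 and -19.2 kcal/mol). Pre-miR-34 was 5th of 118 in stability, pre-miR-317 18th and pre-miR-277 29th. The substrates in this set differ in length, with a median of 62 bases, and per base the 3 stood closer together, at ranks 20, 22 and 25. By the longest shared run of bases, their sequences were no closer to another substrate than is typical. The longest run of bases that any of the 3 shared with another substrate was 9, as long as the median over all substrates, and among themselves they shared runs of 7 or 8 bases.

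In adult flies all 6 arms had reads, whereas 140 of the 466 named arms did (30.0%), with a median of 16 reads among those. The highest was dme-miR-277-3p with 5852 reads, or 41130 RPM (normalized reads as the authors deposited them, 95% exact binomial interval 40104 to 42174). dme-miR-34-5p followed with 4052 reads, or 28479 RPM (interval 27621 to 29356). dme-miR-317-3p had 2687 reads, or 18885 RPM (interval 18184 to 19606). These were the dominant arms, and they stood at ranks 6, 7 and 8 among the named arms. A further 14 entries, listed by a number alone, were left out of these ranks, and the named arms held 114748 of the 139339 listed reads. With those entries included, the dominant arms stood at ranks 7, 9 and 10. Both arms of miR-184, miR-10 and miR-252, for example, are listed at 0 reads. Whether arms at 0 were absent from the flies or missing from the listing was not tested. The share of arms with reads, the ranks and the shares of reads all rest on this listing.
The opposite arms were lower, by a factor of 7.48 for miR-34, 9.77 for miR-317 and 49.2 for miR-277. dme-miR-34-3p had 542 reads, or 3809 RPM (interval 3496 to 4143), at rank 26. dme-miR-317-5p had 275 reads, or 1933 RPM (interval 1711 to 2175), at rank 38. dme-miR-277-5p, the opposite arm of the most abundant member, was the lowest of the 6, with 119 reads, or 836 RPM (interval 693 to 1001), at rank 49. The order of the opposite arms was thus not that of the dominant ones. In whole flies, fewer cells that make a miRNA and less of it per cell cannot be told apart.

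**Figure D1:**
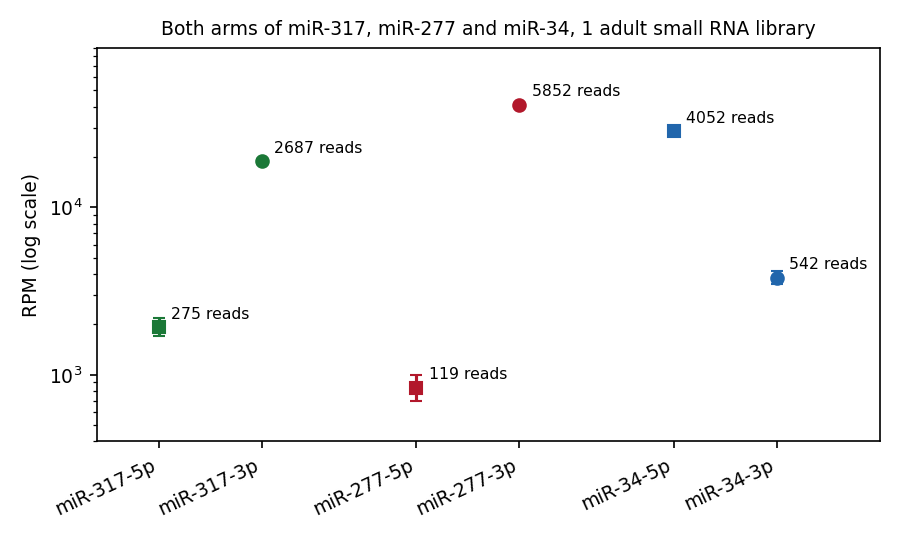
RPM of each arm on a log axis, with the reads beside each point. Circles are 3p arms, squares are 5p arms, and bars are 95% exact binomial intervals in 1 library. The dominant arm of a miRNA is by definition the one with more reads. The dominant arms lie between 18885 and 41130 RPM and the opposite arms between 836 and 3809 RPM.

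Together the 6 arms held 13527 reads, which is 9.71% of all listed reads (95% exact binomial interval 9.55 to 9.86%). The dominant arms gave 12591 of these reads and the opposite arms 936.

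Set against the named arms directly above and below them, the dominant arms of miR-277 and miR-34 had levels of their own, while the opposite arms mostly shared theirs with neighbours. miR-277-3p lay below miR-14-3p, which had 6678 reads, by a factor of 1.14 (exact binomial test, two-sided, adjusted p = 5.57e-13 over 10 pairs). It lay above miR-34-5p by a factor of 1.44 (adjusted p = 1.95e-72, same exact test). miR-34-5p in turn exceeded miR-317-3p 1.51-fold (adjusted p = 1.03e-61, same exact test).
Below miR-317-3p came miR-7-5p with 2541 reads. The ratio of the pair was 1.06 (95% interval 1.001 to 1.117), and the difference did not pass after adjustment (exact binomial test, adjusted p = 0.0808). miR-34-3p differed from miR-12-5p above it, which had 626 reads (exact binomial test, adjusted p = 0.0378), and not detectably from bantam-5p below it, with 478 reads (same exact test, adjusted p = 0.0808, ratio 1.13 with interval 1.001 to 1.285). miR-317-5p was not told apart from miR-993-3p at 278 reads (ratio 1.01, interval 0.85 to 1.20) or miR-995-3p at 241 reads (ratio 1.14, interval 0.96 to 1.36). miR-277-5p was not told apart from miR-1010-3p at 127 reads (ratio 1.07, interval 0.82 to 1.38) or miR-9c-5p at 115 reads (ratio 1.03, interval 0.79 to 1.35). In all, 4 of the 10 pairs differed beyond counting error.

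**Figure D2:**
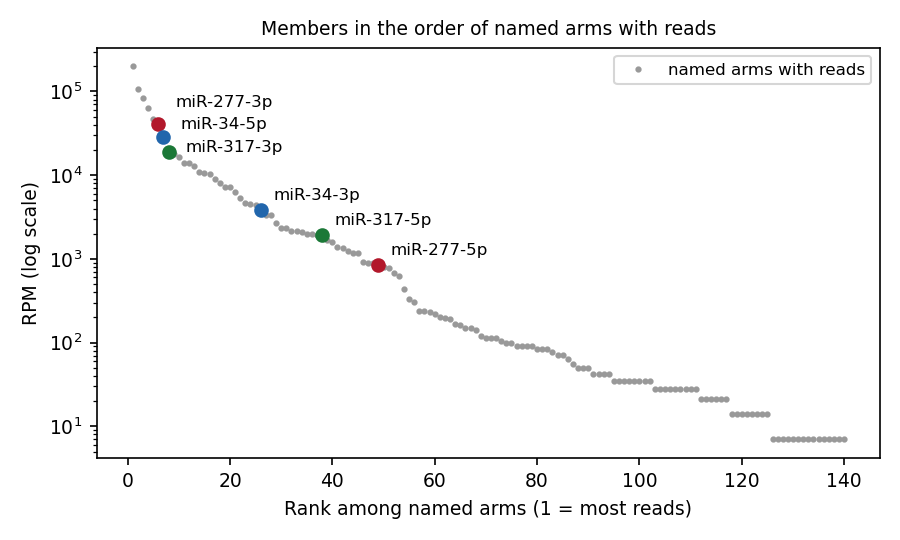
RPM on a log axis of the 140 named arms with reads, in order of their reads, with the 6 member arms in colour and labelled. The dominant arms sit at ranks 6 to 8, and the opposite arms at 26, 38 and 49.

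With both arms summed, as the study does for the expression of a miRNA, the 3 miRNAs of the cluster differed in level by at most a factor of about 2. miR-277 had 5971 reads, or 44.1% of the reads of the cluster (95% exact binomial interval 43.3 to 45.0%). miR-34 had 4594 reads, or 34.0% (interval 33.2 to 34.8%), and miR-317 had 2962 reads, or 21.9% (interval 21.2 to 22.6%). The order did not follow the order on the chromosome, in which miR-317 lies upstream, miR-277 in the middle and miR-34 downstream.
miR-277 exceeded miR-317 2.02-fold (95% interval 1.93 to 2.11, exact binomial test of equal reads, adjusted p = 3.75e-226 over 3 pairs). It exceeded miR-34 1.30-fold (interval 1.25 to 1.35, same exact test, adjusted p = 5.58e-41), and miR-34 exceeded miR-317 1.55-fold (interval 1.48 to 1.62, same exact test, adjusted p = 5.62e-79).

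By reads, the 3 hairpins did not keep the same arm, nor did they keep it to the same degree. Adaptors were ligated to both ends of the RNAs, and whether ligation favoured some sequences over others was not tested. miR-317 and miR-277 kept the 3p arm, to the right of the loop in the sequences above, and miR-34 kept the 5p arm, to the left. Among the 44 miRNAs with at least 50 reads and both arms listed, the 3p arm dominated in 22 and the 5p arm in the other 22.
miR-277 was the most one-sided of the 3, with 98.0% of its reads on 1 arm (95% exact binomial interval 97.6 to 98.3%), or 49.2 reads of miR-277-3p for each read of miR-277-5p (interval 41.0 to 59.5). The share was 90.7% for miR-317 (interval 89.6 to 91.7%), a ratio of 9.77 (interval 8.63 to 11.1). It was 88.2% for miR-34 (interval 87.2 to 89.1%), a ratio of 7.48 (interval 6.83 to 8.19). miR-277 exceeded miR-34 by 9.81 percentage points (95% interval 8.81 to 10.8, Fisher's exact test, two-sided, adjusted p = 2.03e-97 over 3 pairs) and miR-317 by 7.29 points (interval 6.19 to 8.39, same exact test, adjusted p = 7.34e-52). miR-317 exceeded miR-34 by 2.51 points (interval 1.11 to 3.91, Fisher's exact test, adjusted p = 5.53e-04), so that all 3 pairs differed beyond counting error.

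Within the library, miR-277 was of ordinary one-sidedness, whereas miR-317 and miR-34 had a larger share of reads on the opposite arm than most miRNAs. Over the 44 miRNAs the median share of the dominant arm was 97.5% (quartiles 94.6 and 99.6%), and in 5 of them all reads came from 1 arm. The dominant arm held at least 90% of reads in 38 of the 44 (86.4%), and in 2 of the 3 members. Of the 44, 20 were more one-sided than miR-277, 36 more than miR-317 and 39 more than miR-34.
miR-277 was flanked in this order by let-7 with 98.8% on its 5p arm and miR-995 with 97.6% on its 3p arm, and neither difference passed Fisher's exact test (adjusted p = 0.208 and 0.768 over 6 pairs). miR-317 was flanked by miR-14 at 93.3%, from which it differed (Fisher's exact test, adjusted p = 4.78e-05), and by miR-276b at 90.3% (same exact test, adjusted p = 0.768). The same 166 reads are listed for the 5p arms of miR-276b and miR-276a, so the share of miR-276b may rest on reads that belong to both. miR-34 was flanked by miR-932 at 88.9% and miR-283 at 86.2%, both with few reads and wide intervals (82.6 to 93.5% and 80.7 to 90.6%), and was not told apart from either (same exact test, adjusted p = 0.896 and 0.752).

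**Figure D3:**
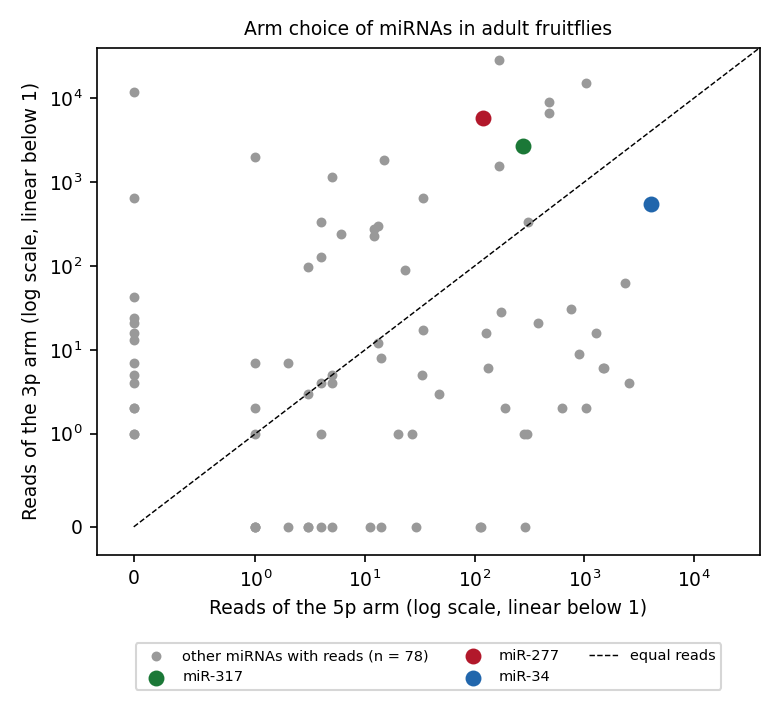
Reads of the 3p arm against reads of the 5p arm for the 81 miRNAs with reads and both arms listed, on log axes that are linear below 1. Each point is a miRNA and the dashed line marks equal reads; miR-317 and miR-277 lie above the line, miR-34 below it, and the lower arms of the members hold 119 to 542 reads.

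The opposite arms of the members were themselves among the more abundant sequences. miR-34-3p had more reads than the dominant arm of 58 of the 81 miRNAs with reads and both arms listed. For miR-317-5p this number was 50, and for miR-277-5p it was 43. Among the opposite arms of these 81 miRNAs, miR-34-3p was 2nd after miR-8-5p with 1038 reads, miR-317-5p was 6th and miR-277-5p 9th. Over these 81 miRNAs, the cluster gave 23.5% of the 3980 opposite-arm reads and 11.6% of the dominant-arm reads.

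The label of a cluster was checked against the positions in the transcript table, which for these genes were those of Release 6 of the genome. On the plus strand of 3R, mir-317 lies at 10091126 to 10091217, mir-277 at 10100022 to 10100121 and mir-34 at 10100936 to 10101034. mir-277 and mir-34 are 814 bases apart, while 8804 bases separate mir-317 from mir-277. The cluster is therefore a close pair with mir-317 at a distance, and the whole spans 9909 bases.

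When hairpins on 1 strand with neighbours within 10 kb were taken as clusters, there were 22 in the genome, of which 11 had reads at every hairpin. This cluster held the most reads of the 22. The let-7 complex, the other cluster of 3 different abundant miRNAs, was next with 3815 reads. The ratio of the highest to the lowest miRNA is not defined where a hairpin has no reads, so it was compared among the 11 alone. It was 2.02 here. Of the others with reads at every hairpin, 8 had a larger ratio and 2 a smaller one, with a median of 14.9. Directly above this cluster in this order were mir-275 and mir-305 with a ratio of 2.89, and directly below mir-994 and mir-318 with 1.63. The let-7 complex had the lowest, 1.43. At the other end, mir-92a and mir-92b differed 118.5-fold, with only 2 reads for miR-92b. Clusters differ in the number of hairpins and in reads, and a ratio over few reads has a wide counting error.

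**Figure D4:**
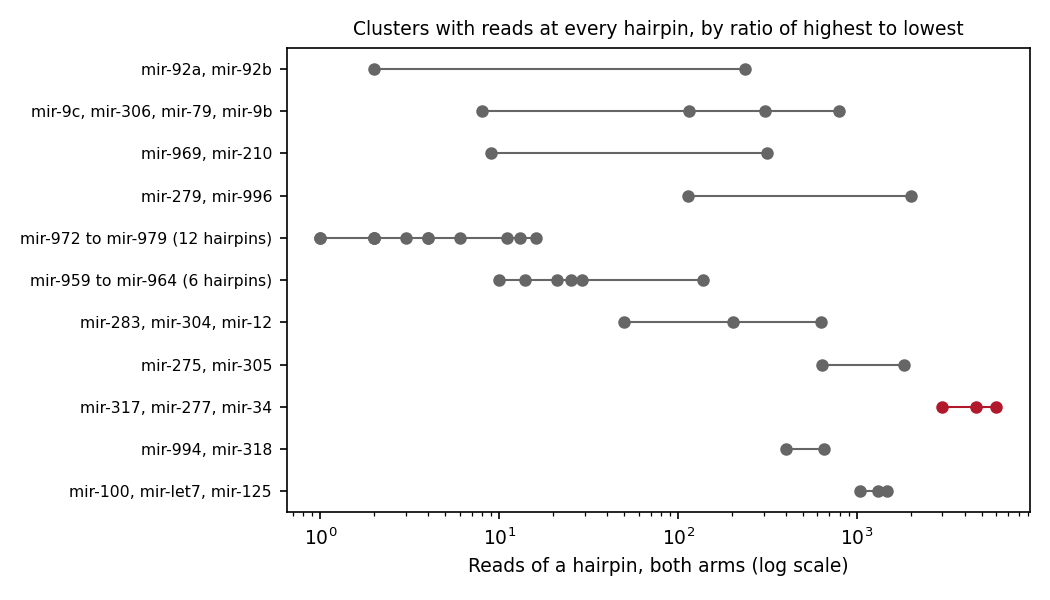
Reads of each hairpin (both arms summed, log axis) in the 11 clusters with reads at every hairpin, ordered by the ratio of the highest to the lowest hairpin. Each point is a hairpin and each line joins the extremes of a cluster; the mir-317, mir-277 and mir-34 cluster, in red, lies farthest to the right, between 2962 and 5971 reads.

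In the mRNA library the hairpins differ in the transcripts that hold them. The long non-coding RNA gene lncRNA:CR43459 (FBgn0263413, plus strand, 10093761 to 10101356) begins 2543 bases downstream of mir-317 and holds mir-277 and mir-34. It is known as their primary transcript. Its 3 listed transcripts share a start and differ in where they end. FBtr0309197 ends at 10100302, past mir-277 and before mir-34, and had 353 counts and a TPM (normalized abundance per transcript length) of 3.18. FBtr0346908 ends at 10101356, past both hairpins, and had 86 counts and a TPM of 0.66. FBtr0309196 ends at 10094625, before both, and had 6 counts and a TPM of 0.37.
The transcript with mir-277 alone thus took 79.3% of the 445 counts of the gene (95% exact binomial interval 75.3 to 83.0%). By TPM it stood 4.82 times above the transcript with both hairpins. Summed TPM was 3.84 over transcripts with mir-277 and 0.66 over those with mir-34, a ratio of 5.82, whereas reads of miR-277 and miR-34 stood at a ratio of 1.30. The transcripts overlap over most of their span, so the split rests on how reads were assigned to them before deposit, and the tool is not named for this step. The ratios come from different libraries and were not tested against each other.

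mir-317 was held by no other listed transcript. Upstream of it on the same strand, lncRNA:CR45054 (10083381 to 10090525) ends 600 bases before the hairpin and had 54 counts and a TPM of 1.64. The entries of the hairpin genes themselves had 0 counts for mir-317, which allows up to 3 as a one-sided 95% limit, and 1 count each for mir-277 and mir-34. On the minus strand, Fmr1, which encodes an RNA-binding protein, ends 385 bases from mir-34 and 63 bases from lncRNA:CR43459, without overlap, and had a TPM of 162 over its 11 transcripts. Its level was far above that of the primary transcript.

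**Figure D5:**
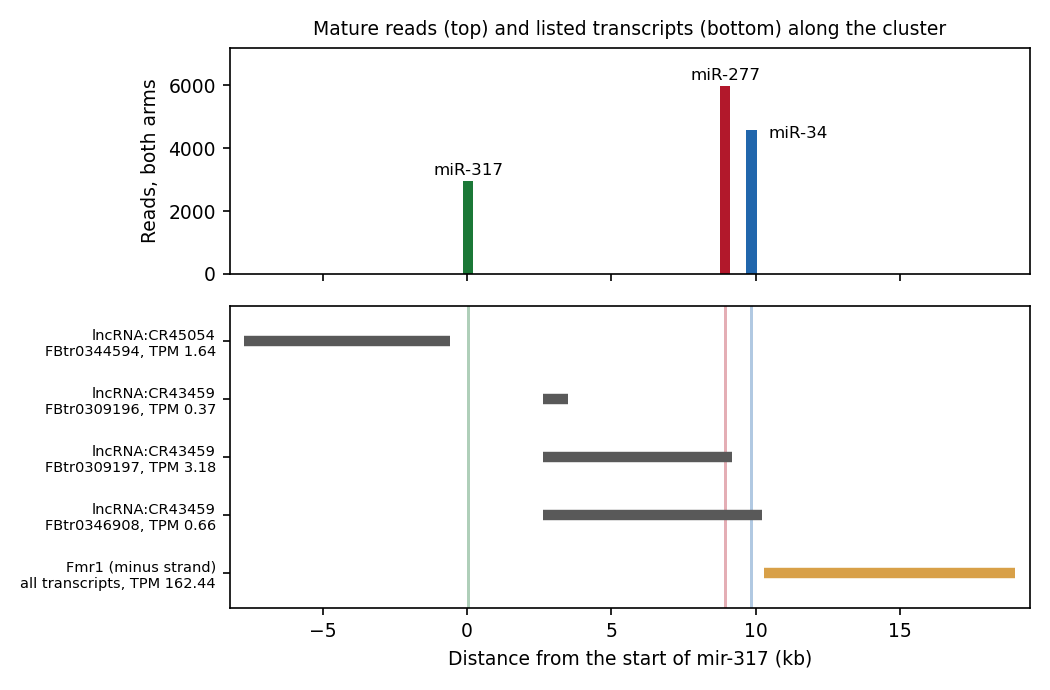
Top, reads of both arms of each miRNA at the position of its hairpin. Bottom, genomic spans (introns included) of the listed transcripts around the cluster, with their TPM; the x axis is the distance in kb from the start of mir-317, and coloured bands mark the hairpins. The transcript that ends between mir-277 and mir-34 has a TPM of 3.18, and the one that reaches past mir-34 has 0.66.

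As a gene, lncRNA:CR43459 was of low abundance among all genes and of high abundance among long non-coding ones. Its summed TPM of 4.21 was above that of 38.2% of the 17698 genes in the table, whose median was 11.7. Of the 1924 genes that RefSeq annotates as long non-coding, it exceeded 85.7%, and their median was 0.65. lncRNA:let7C, the primary transcript of the let-7 complex, had a TPM of 1.02 from 43 counts, beside 3815 mature reads for its 3 miRNAs. For miR-277 and miR-34 together there were 10565 mature reads beside the TPM of 4.21. The labels do not state how RNA was selected for the mRNA library, so how fully it captured primary transcripts is unknown. Mature reads and TPM come from different libraries and were not tested against each other.

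Genes of a pathway that miR-277 is known to regulate, and reported targets of these miRNAs, were present in the mRNA library. All 17 genes in a list of enzymes of branched-chain amino acid breakdown, which as a pathway is regulated by miR-277, had a TPM of at least 1, as had 75.9% of all genes. Their levels ran from 23.4 to 377, with a median TPM of 82.2. Bcat, the transaminase that opens the pathway, had a TPM of 35.9. The subunits of the branched-chain ketoacid dehydrogenase complex differed, with BckdhA at 23.4, BckdhB at 159, Dbct at 41.9 and the shared subunit CG7430 at 198 TPM. Further along the leucine branch, the carboxylase subunits Mccc1 and Mccc2 had TPMs of 67.2 and 45.7. The highest members of the list were scu at 377 TPM and Echs1 at 342 TPM, dehydrogenase and hydratase steps that fatty acid breakdown also uses.
Eip74EF, the ecdysone-response transcription factor repressed by miR-34, was among the lower genes, with a TPM of 5.28, above 40.6% of all genes. Pcl and Su(z)12, components of Polycomb repressive complex 2 that have also been reported as targets of miR-34, had TPMs of 105 and 68.2. Drep2 and vimar, reported targets of miR-277, stood at 73.9 and 47.8 TPM, and Dif, a transcription factor of the Toll pathway reported for miR-317, at 23.5 TPM. These TPMs are summed over the transcripts of each gene. The highest single transcript had a TPM of 2.79 for Eip74EF and 7.51 for Dif. It had 38.3 for Drep2, 44.3 for vimar, 66.6 for Su(z)12 and 99.6 for Pcl. With 1 mRNA library and no change in any miRNA, these levels hold no measurement of repression.

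Genes in a list of Argonaute, Dicer and trimming factors were also present. All 8 had a TPM of at least 1, as had 75.9% of all genes. Nbr, the exonuclease that trims the 3′ end of miR-34, had a TPM of 84.3. AGO2, the Argonaute that takes up part of miR-277, had 79.4 and AGO1 41.2 TPM. Dcr-1, drosha and pasha, which process the hairpins, had TPMs of 23.5, 27.8 and 29.1, and the Dicer-1 partner loqs had 68.2. Dcr-2, also in the list, had a TPM of 26.8. Reads bound to each Argonaute and reads of different length were not separated in the small RNA table, so neither loading nor trimming of the members could be measured.

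As a check on the label, markers of eye (ninaE at 1671 TPM), of female fat body and ovary (Yp1 at 913, Yp2 at 652 and Yp3 at 543 TPM) and of testis (Mst87F at 934 and dj at 171 TPM) were all abundant in the mRNA library. The flight muscle genes Act88F and fln were low, at 23.6 and 11.4 TPM. The neuronal genes nSyb and elav had 55.7 and 4.82 TPM. Whether the small RNA library came from the same flies is not stated, and the part of tissue make-up in the levels of the 6 arms was not tested.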

How the data were processed

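Small RNA and mRNA of adult fruitflies were each sequenced in 1 library. For small RNA, the authors clipped adaptors with Cutadapt, trimmed with trimmomatic and aligned reads to miRBase with miRDeep2, and deposited counts (reads per mature sequence) and RPM. RPM corresponded to 142282 reads, so that 1 read equals 7.03 RPM. For mRNA, the authors deposited counts per transcript, taken here as rounded expected counts, with TPM and FPKM. The submitters' notes name CASAVA and HISAT2, with the counting tool and genome build not given in the sources used here.

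Confidence intervals were two-sided exact binomial (Clopper-Pearson) at 95%, except the differences between arm shares, which used the normal approximation. A count of 0 allows up to 3 counts (one-sided 95% limit). Reads of a pair were compared by the exact binomial test, arm shares by Fisher's exact test (scipy 1.17.1), with Benjamini-Hochberg adjustment and a threshold of 0.05. Reads carry no molecular identifiers, so these cover counting error only, and not differences between sequences in how well they were ligated. An arm shared by several hairpins was given in full to each. In place of RefSeq hairpins, pre-miRNA substrates were joined from the primers of the study and folded with RNAfold 2.7.2; 2 of them could not be joined. Scripts were tested on simulated data. Named miRNAs are the members, their neighbours in each order and the let-7 complex. Named genes are those at the locus and in the lists, except that some enzymes of the amino acid list are given by their range. Members and lists were chosen with earlier results of these data known. Alternatives covered the arm summed, RPM, read minimum, strand, denominator, cluster window, test, FPKM, highest transcript and folding temperature. Mature sequences and seeds were not used here.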

Additional observations from a re-analysis of the deposited data

How the results depend on the processing

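Of 43 recomputed values, 35 were counted as unchanged, under rules that let ranks and counts of miRNAs shift somewhat. Among them, the cluster and arm shares by RPM could not change, since RPM is reads times a constant. The plus strand alone gave the same counts of miRNAs. All 6 pairwise differences kept their direction and their call with the dominant arm alone or with the chi-square test. With the entries listed by a number alone included, the opposite arms stood at ranks 29, 41 and 52. With the dominant arm alone, the share of the cluster was 46.5% for miR-277 and 32.2% for miR-34, and the ratio of the highest to the lowest miRNA was 2.18. The cluster held 11.8% of reads over named arms alone and 9.51% of the RPM total, by the construction of these denominators. At 25 °C the free energies were -34.8 kcal/mol for pre-miR-317, -34.4 kcal/mol for pre-miR-277 and -40.2 kcal/mol for pre-miR-34. With neighbours within 3 kb, mir-317 leaves the cluster, whose ratio is then 1.30. The alternative that read the first 3 bases of each arm was not run, since mature sequences were not used here. No paired analysis was possible because each library is a single sample. Without replicates, the spread between flies or between library preparations is unknown for every value.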
